A study of Mus musculus with 4 samples.

Results

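The mitochondrial ribosomal protein genes were followed here in sorted mouse bone marrow cells with and without the carnitine palmitoyltransferase gene Cpt1a. The members were the protein-coding genes whose symbol begins with Mrpl or Mrps and a digit, 78 of 55401 gene models, of which 49 are named for the large (39S-type) and 29 for the small (28S-type) subunit. A further 5 gene models with such symbols are annotated as pseudogenes and were left out. RNA-seq was performed on 2 KO and 2 Control libraries of cells that the labels call long-term HSCs, while the study's text speaks of hematopoietic stem and progenitor cells. KO mice had floxed Cpt1a alleles and the Vav1-Cre transgene, whose promoter is active throughout the blood system, so that the deletion was not limited to stem cells. Control cells, labelled WT, came per the study from mice with the floxed alleles. Both groups were on a C57BL/6 background, and adult mice of both sexes were used in the study unless stated otherwise. The labels do not say whether the libraries of a group are from different mice, and every p-value refers to the spread among these libraries, which may be technical.

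Mitochondria carry ribosomes of their own, which translate only the few mRNAs encoded by mitochondrial DNA, all of them for subunits of the respiratory chain and ATP synthase. The ribosomal RNAs come from mitochondrial DNA, but every protein of these ribosomes is encoded in the nucleus, made in the cytosol and imported. The small subunit binds and decodes the mRNA, and the large subunit joins the amino acids and sits at the inner membrane, where the products are inserted. Some of the proteins have bacterial counterparts and others occur only in mitochondria. HSCs are known for low use of mitochondrial respiration at rest, and the study asked how the loss of fatty acid import into mitochondria alters these cells.

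The expected counts, which are reads assigned to genes by the authors' estimation, summed to 34083159 and 33909781 in KO libraries 1 and 2, against 20589218 and 23291747 in Control libraries 1 and 2. Cpt1a stood at 11.5 and 19.2 TPM (transcript abundance corrected for length and scaled to the same sum in each library) in KO, against 37.0 and 35.6 TPM in Control, a log2 fold change of -1.60 (SE 0.15, edgeR adjusted p = 0.00695). The libraries also differed in markers of other blood cells. Of 10 B lineage markers 9 passed the test as higher in KO, with summed levels of 443 to 647 TPM in KO and 62.2 to 95.5 TPM in Control. Of 9 mast cell markers 5 passed as higher (371 to 465 TPM in KO, 44.4 to 89.1 TPM in Control), and Cma1 and Tpsb2 were at 0 in both Control libraries. Of 12 erythroid markers 8 passed as lower (613 to 694 TPM in KO, 1444 to 1489 TPM in Control), and so did 1 of 10 neutrophil markers (6355 to 6531 TPM in KO, 8152 to 11858 TPM in Control). None of the 10 HSC markers passed (584 to 594 TPM summed in KO, 560 to 639 TPM in Control). Kit held the largest part of each sum, with a log2 fold change of 0.07. Of the 10 markers 2 were above and 8 below zero, with a median of -0.21. In TPM both KO libraries were below both Control libraries for 4 markers and above for 2. Mecom had the lowest p, at 12.85 and 13.76 TPM in KO, against 17 and 28.92 TPM in Control. Its log2 fold change was -0.78 (SE 0.26, edgeR adjusted p = 0.376). Among the HSC markers Hoxb5, a marker of long-term HSCs, was at 0.18 and 0 TPM in KO, against 0.65 and 1.12 TPM in Control. Slamf1, the gene for CD150, stood at 4.83 and 2.88 TPM in KO, against 4.44 and 4.41 TPM in Control. Control library 2 stood apart in immediate early genes, with Egr1 at 18.7 and 14.8 TPM in KO, against 38.4 and 470 TPM in Control. The part of these differences in the values below was not tested. In bulk RNA, fewer cells of a type and less RNA per cell cannot be told apart.

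No mitochondrial ribosomal protein gene passed the test between KO and Control. All 78 members had enough counts to be tested, with 232 to 3299 counts per member and library, and 0 of 78 reached an edgeR adjusted p under 0.05, where 0.663% of the 14635 genes tested did. At an unadjusted p under 0.05 there were 0 members higher and 0 lower in KO, against a background of 5.81% of genes higher and 4.61% lower. DESeq2 also called 0 members, where it called 7.18% of the 15535 genes to which it gave an adjusted p. Limma on log2(TPM + 1) called 0, where it called 0.0342% of the 14635 genes. The log2 fold changes of the members lay between -0.53 (Mrpl44) and 0.48 (Mrpl14), 33 above and 45 below zero, with a median of -0.04 and the middle of the family between -0.16 and 0.10. Over all genes tested the median was 0.01. The median size of a change, regardless of sign, was 0.12 in the family and 0.25 over all genes. The sign of the family median depended on the measure and the libraries, as it was 0.00119 with limma on log2(TPM + 1) 0.00567 without Control library 1 and -0.08 without Control library 2.

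The precision of the comparison bounded the changes that these libraries leave possible. The SE of a member's log2 fold change was 0.14 to 0.39, with a median of 0.21, and for 75 of 78 members the whole 95% interval lay within a change of 2-fold in either direction, as it did for 55.2% of all genes with an interval. The exceptions were Mrpl14, Mrpl35 and Mrpl44. A smaller change of single members, of the size of these intervals, was not detectable with 2 libraries against 2, the design for which the smallest p of an exact permutation test is 0.333.

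**Figure D1:**
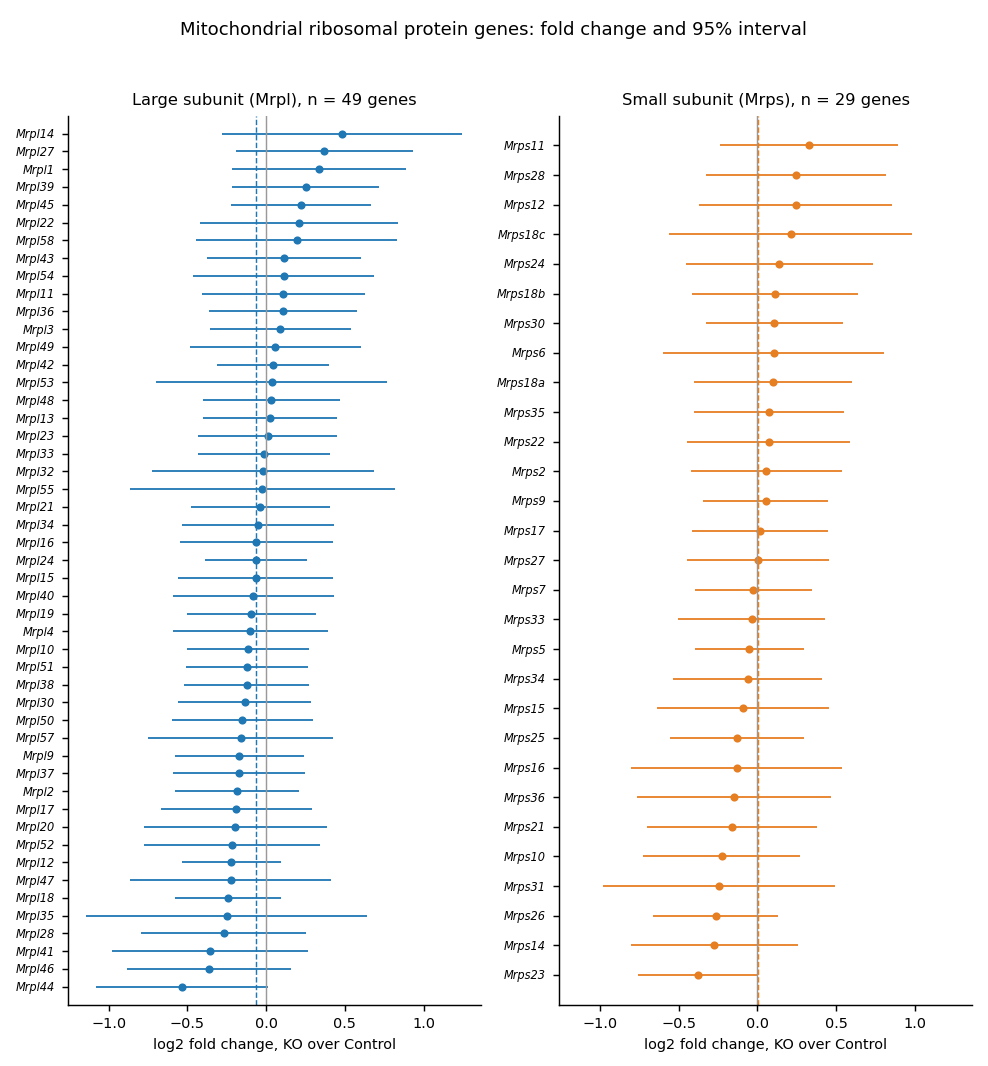
Log2 fold change (KO over Control, x axis) of each member as fitted by edgeR, with its 95% interval (line), for the large subunit (left, 49 genes) and the small subunit (right, 29 genes). Dashed lines mark the medians of -0.06 and 0.00431. All 78 intervals reach or cross 0, and those of Mrpl14, Mrpl35 and Mrpl44 extend beyond a log2 value of 1 or -1.

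Summed over the family, the members held 5735 and 5779 TPM in KO, against 6122 and 5616 TPM in Control, which was 0.573% and 0.578% of all transcripts in KO and 0.612% and 0.562% in Control. The KO libraries lay between the Control libraries. The mean sums of 5757 ± 31.3 TPM in KO and 5869 ± 358 TPM in Control (SD, n = 2 each) gave a ratio of 0.981, a difference smaller than the spread of Control. The large subunit genes summed to 3796 and 3855 TPM in KO and to 4134 and 3674 TPM in Control. The small subunit genes summed to 1939 and 1924 TPM in KO and to 1988 and 1941 TPM in Control. Here both KO libraries were below both Control libraries, by less than the distance between the Control libraries. In CPM (counts scaled to the same library total, without a length correction), the family summed to 3082 and 3111 in KO, against 3319 and 3067 in Control, a ratio of means of 0.97. The small subunit sums overlapped in CPM, at 1065 and 1092 in KO and 1111 and 1076 in Control. The ratios of the family sums turned on Control library 1. Without it the log2 ratio of the sums was 0.04 in TPM and 0.01 in CPM, against -0.03 and -0.04 with all libraries.

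By subunit, the median log2 fold change was -0.06 over the large subunit genes (18 above and 31 below zero) and 0.00431 over the small subunit genes (15 above and 14 below). The cryo-EM structures of mammalian mitochondrial ribosomes place the products of Mrps18a and Mrps30 in the large subunit despite their names. Only these genes were moved, and all other members kept the subunit of their name, without a check against the structures. The medians were then -0.06 over 51 genes and -0.02 over 27 genes. The signs of these medians were not stable, since without Control library 1 the large subunit was at 0.02 and the small subunit at -0.01.

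Some members nevertheless separated by genotype. In CPM both KO libraries lay above both Control libraries for 8 members (23.6% of all genes did so) and below them for 12 members (18.3% of all genes). In TPM the numbers were 11 above (23.1% of all genes) and 12 below (16.8% of all genes), and 14 members separated in the same direction in both units. In neither unit nor direction did the share of the family exceed the background.

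The levels of the members spanned a wide range within each library, although most of the proteins occur in equal numbers in the assembled ribosome. The median of the mean TPM over all libraries was 63.4, and 69 of 78 members lay between 20 and 140 TPM. The highest member exceeded the lowest 26.9-fold and 16.9-fold in KO libraries 1 and 2, against 22.5-fold and 20.6-fold in Control libraries 1 and 2. Highest were Mrpl33, Mrpl52, Mrpl42 and Mrps21, which code for short proteins. In CPM, without a length correction, Mrpl52 and Mrps21 were below the family median in every library. Mrpl33 and Mrpl42 were above it. Mrpl33, a counterpart of bacterial ribosomal protein L33, stood at 226 and 220 TPM in KO, against 206 and 238 TPM in Control. Mrpl52, a protein found only in mitochondrial ribosomes, stood at 181 and 225 TPM in KO, against 226 and 218 TPM in Control. Mrpl42 had 203 and 224 TPM in KO and 200.3 and 190.1 TPM in Control, and was the one of the 4 whose groups did not overlap in TPM. Mrps21, the counterpart of bacterial S21 in the small subunit, had 195 and 211 TPM in KO and 165 and 245 TPM in Control. The order among these 4 changed from library to library, so their ranks do not differ beyond the spread.

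The lowest level was that of Mrpl1, whose product forms the mobile stalk at which spent tRNAs leave the ribosome. It had 17.5 and 13.3 TPM in KO, against 11.0 and 11.9 TPM in Control, and both KO libraries were above both Control libraries. Next were Mrpl47, which lies near the exit of the peptide tunnel, Mrps30 and Mrpl19. In CPM, Mrps30 and Mrpl19 were above the family median in every library, so their low rank holds only per length. Mrpl1 and Mrpl47 were below that median in CPM too. Mrps30 stood at 20.5 and 23.3 TPM in KO and at 21.4 and 18.2 TPM in Control, with overlapping groups.

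**Figure D2:**
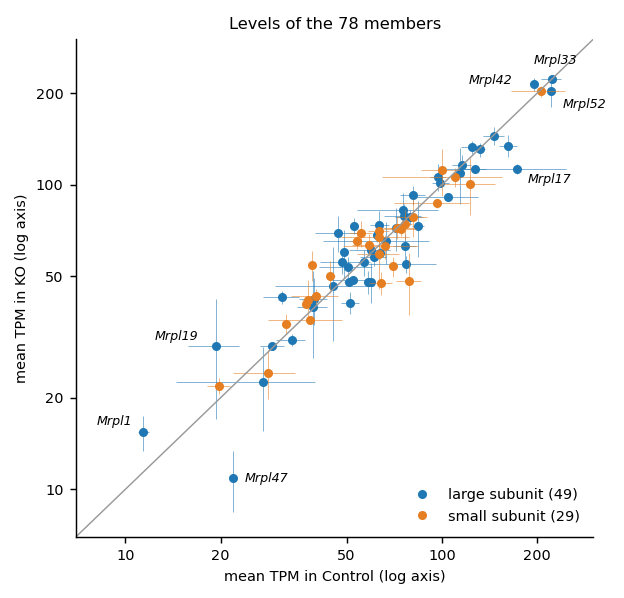
Mean TPM of each member in KO (y axis) against Control (x axis), both on log axes, with lines from the lower to the higher library of each group and the diagonal of equal levels. The 78 members spread from 13.4 TPM (Mrpl1) to 223 TPM (Mrpl33) in mean level, and the labelled Mrpl47, Mrpl19 and Mrpl17 stand off the diagonal, as does Mrps25.

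Among the large subunit genes, those with the lowest p in the direction of lower levels in KO were Mrpl44, Mrpl18, Mrpl12 and Mrpl46. Mrpl44 (ENSMUSG00000026248, GRCm38 chromosome 1, 79776018 to 79781445) codes for a protein related to ribonuclease III near the exit of the peptide tunnel. Its CPM was 47.9 and 42.8 in KO, against 81.3 and 49.3 in Control. Both KO libraries were lower, but by far the highest value was that of Control library 1. The log2 fold change was -0.53 (SE 0.24, 95% interval -1.08 to 0.01, edgeR adjusted p = 0.494). The size of its change turned on the Control libraries, as the log2 fold change was -0.84 without Control library 2 and -0.14 without Control library 1. The first of these fits gave an edgeR adjusted p of 0.0389, but with Control as a lone library, which is assumed to vary as the KO libraries do.

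Mrpl12 forms the flexible stalk that recruits translation factors. It had 82.8 and 85.7 CPM in KO, against 106 and 89.3 CPM in Control, with a log2 fold change of -0.22 (SE 0.14, edgeR adjusted p = 0.628) that was -0.11 without Control library 1. Mrpl18, the counterpart of a bacterial protein of the central protuberance, had 72.6 and 65.0 CPM in KO, against 86.7 and 74.9 CPM in Control. In TPM its groups overlapped, at 107 and 126 TPM in KO and 124 and 108 TPM in Control. Mrpl46, found only in mitochondrial ribosomes, had 27.6 and 23.6 CPM in KO, against 30.7 and 34.6 CPM in Control, and a log2 fold change of -0.36 (SE 0.23, edgeR adjusted p = 0.636). Both KO libraries were below both Control libraries for all of these genes, and in each case the 95% interval included 0.

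The large subunit genes with the lowest p toward higher levels in KO were Mrpl27, Mrpl14, Mrpl1, Mrpl39 and Mrpl45. Mrpl27 (ENSMUSG00000024414, GRCm38 chromosome 11, 94653767 to 94660089) is the counterpart of the bacterial protein that reaches to the site of peptide bond formation. It had 25.6 and 24.1 CPM in KO, against 19.0 and 19.1 CPM in Control. Both KO libraries were higher, and the Control libraries were nearly equal. Its log2 fold change was 0.37 (SE 0.24, 95% interval -0.19 to 0.93, edgeR adjusted p = 0.664), and without any 1 library it was between 0.34 and 0.41. With limma on log2(TPM + 1) it was 0.47 (adjusted p = 0.521). Mrpl14, at the face that joins the small subunit, had 15.4 and 21.7 CPM in KO, against 11.3 and 15.0 CPM in Control. Its 95% interval ran from -0.28 to 1.25, the highest upper bound of the family. Mrpl1 had 27.5 and 30.6 CPM in KO, against 25.3 and 20.5 CPM in Control.

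Mrpl39, which resembles part of a tRNA synthetase, had 46.9 and 47.4 CPM in KO, against 34.7 and 43.8 CPM in Control. Mrpl45 fastens the ribosome to the inner membrane. It had 45.5 and 46.2 CPM in KO and 35.9 and 42.0 CPM in Control, but 29.5 and 29.7 TPM in KO and 31.7 and 26.6 TPM in Control. Its groups were thus separate in CPM and overlapped in TPM. The KO libraries lay close together for both genes and the Control libraries did not.

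Among the small subunit genes, Mrps23 had the lowest p of the whole family. Mrps23 (ENSMUSG00000023723, GRCm38 chromosome 11, 88204388 to 88211507), a protein without a bacterial counterpart, had 47.6 and 44.0 CPM in KO, against 60.9 and 57.1 CPM in Control. The log2 fold change was -0.38 (SE 0.16, 95% interval -0.76 to 0.00485, edgeR adjusted p = 0.49). DESeq2 gave -0.38 with an adjusted p of 0.0679, which also missed the threshold. In TPM its groups overlapped, at 122 and 79.4 TPM in KO and 98.3 and 147 TPM in Control. Its effective length, the number of positions where a read can start averaged over the transcripts to which reads were assigned, was 549 and 771 bases in KO and 852 and 533 bases in Control.

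Mrps26, which also occurs only in mitochondria, had 50.6 and 43.7 CPM in KO, against 58.0 and 54.3 CPM in Control, with a log2 fold change of -0.26 (SE 0.17, edgeR adjusted p = 0.658). Mrps11, the counterpart of a bacterial protein of the platform, had 24.7 and 28.6 CPM in KO, against 20.1 and 22.0 CPM in Control, with a log2 fold change of 0.33 (SE 0.24, edgeR adjusted p = 0.721). For both genes the groups did not overlap in CPM or in TPM.

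Mammals have 3 genes related to bacterial S18, and their products sit at different places of the ribosome. Mrps18c is the counterpart at the bacterial position, Mrps18b lies elsewhere in the small subunit, and Mrps18a is in the large subunit. Mrps18a had 31.9 and 33.4 CPM in KO and 27.9 and 32.5 CPM in Control. Mrps18b had 39.6 and 34.1 CPM in KO and 39.0 and 28.7 CPM in Control. Mrps18c had 29.5 and 26.3 CPM in KO and 32.1 and 15.8 CPM in Control, the widest spread of the 3 within Control. The groups overlapped for each of these genes, and the log2 fold changes were 0.10, 0.11 and 0.21 for Mrps18a, Mrps18b and Mrps18c. Mrps30 had 45.0 and 51.7 CPM in KO and 48.2 and 40.9 CPM in Control, with a log2 fold change of 0.11 that ran from 0.0002 (without KO library 2) to 0.22 (without Control library 1) when a library was left out.

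**Figure D3:**
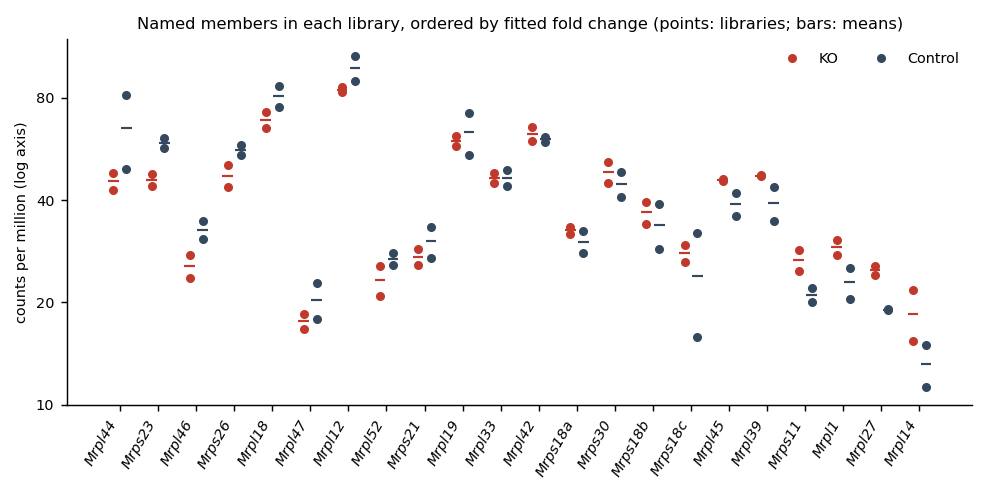
CPM (log axis) of the 22 named members in each library, KO (red, left of each pair) and Control (blue, right), with bars at the group means, ordered from the lowest fitted log2 fold change (Mrpl44) to the highest (Mrpl14). Members were named partly for their low p in each direction, so separate groups toward the ends are built into the choice, and Mrpl47 overlaps among members that do not. Control library 1 is the highest value of Mrpl44.

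Counts and TPM did not always point the same way. TPM divides by the effective length of the transcripts to which reads were assigned, and this length differed over 1.5-fold between libraries for 9 members and over 2-fold for 3 of them, while the median member differed by 1.10-fold. The log2 ratio of KO over Control had opposite signs in mean TPM and mean CPM for 12 members. Mrpl47 (ENSMUSG00000037531, GRCm38 chromosome 3, 32725397 to 32737605) was the clearest case. It had 8.40 and 13.4 TPM in KO, against 21.9 and 22.0 TPM in Control, a log2 ratio of mean TPM of -1.01. Its CPM was 18.5 and 16.7 in KO, against 17.9 and 22.9 in Control, with overlapping groups and a fitted log2 fold change of -0.22 (SE 0.28, edgeR adjusted p = 0.891). This value was -0.40 without Control library 1 and -0.017 without Control library 2. The effective length was 3105 and 1741 bases in KO, against 1121 and 1431 bases in Control, which moves the level per length without a matching move in reads. With limma on log2(TPM + 1) the log2 fold change of Mrpl47 was -0.98 (adjusted p = 0.489). Mrpl47 overlaps Actl6a and Ndufb5 on the opposite strand.

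Mrps25, a small subunit protein, showed the same kind of difference. It had 59.5 and 37.5 TPM in KO, against 71.6 and 86.2 TPM in Control, while its CPM was 43.5 and 39.6 in KO and 47.3 and 42.9 in Control. Mrpl19 went the other way, with 42.2 and 17.0 TPM in KO and 22.9 and 15.8 TPM in Control, a log2 ratio of mean TPM of 0.61 with overlapping groups, beside a log2 ratio of mean CPM of -0.08. Its effective length was 2067 bases in KO library 1 and 4705 bases in KO library 2. Mrpl17 had 109 and 117 TPM in KO, against 247 and 98.8 TPM in Control, so that Control library 1 alone stood out, with CPM of 45.4 and 45.8 in KO and 60.8 and 42.6 in Control. Uncertainty in the assignment of reads to genes was small by comparison. The posterior SD that the authors' files give for each count was at most 1.68% of its mean (Mrpl53), and it was 0 in every library for 62 members.

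**Figure D4:**
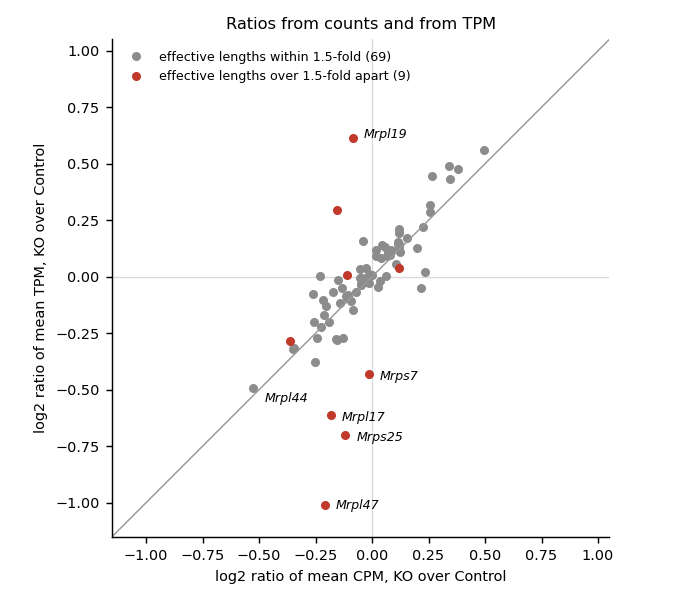
Log2 ratio of mean TPM (y axis) against log2 ratio of mean CPM (x axis), both KO over Control, for the 78 members, with the diagonal of equal ratios. Members with effective lengths over 1.5-fold apart between libraries (red, 9 genes) include those farthest from the diagonal, with Mrpl47 at -0.21 in CPM and -1.01 in TPM.

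The members are scattered over 17 chromosomes, with up to 11 members on a chromosome (chromosome 11). Of the 78 members 18 (23.1%) had the start of another protein-coding gene within 1000 bases upstream on the opposite strand, a head-to-head arrangement, as against 10.3% of the 12773 protein-coding genes tested. The nearest such partners, all 18 of which were tested, had a median log2 fold change of -0.09, and 0 were called. They included Sars2, the mitochondrial seryl-tRNA synthetase gene, beside Mrps12, the proteasome gene Psma2 beside Mrpl32, and Fau, which codes for a cytosolic ribosomal protein, beside Mrpl49.

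Mrps11 and Mrpl46 are both members and lie head to head on chromosome 7 by their RefSeq starts. These starts, at 78783131 for Mrps11 and 78783089 for Mrpl46, are 42 bases apart. Their annotated gene models (78783119 to 78792989 and 78775236 to 78783531) overlap, so the pair is not among the 18 members counted above. As given above, both KO libraries were above both Control libraries for Mrps11 and below them for Mrpl46, with log2 fold changes of 0.33 and -0.36. Neither change passed the test, and the pair was singled out after its values were seen. Overlap with a gene on the opposite strand was common, with 35 members affected, 23 of them by a protein-coding gene. The kit keeps the strand, but the sources used here do not give the strand setting of the counts, so reads of such genes may not have been told apart from those of their partners.

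Promoters of nuclear genes for mitochondrial proteins are known for sites of the factors NRF1, YY1 and the ETS factor GABPA. RefSeq windows of 250 bases before to 50 bases after the start (GRCm38.p6) were found for 69 of 78 members, 75 windows in all, and were searched on both strands for 4 sets of letters. GCGCANGCG (NRF1) was found in 21.3% of the members' windows, against 8.91% of 20139 windows of protein-coding genes. CCGGAAGT (ETS factors) was found in 16% of the members' windows, against 5.35% of all windows. ATGGCGGC (YY1) was found in 16% against 3.11%, and CACGTG (the E-box, bound by MYC among others) in 9.33% against 8.03%. Counted by gene, the E-box was in 7.25% of the 69 members and in 9.17% of all genes. The other sets stayed more frequent in members when counted by gene. These matches are descriptions of the letters and do not show binding. None of the sets contains another, and GCGCANGCG can match both strands at overlapping positions. The windows below run from 175 bases before to 25 bases after the start on the plus strand, with matches to these sets in capitals. They show the member with the lowest p, which has no match in this stretch, a member with 3 matches for NRF1, a member of high level with an ETS match just past its start, and a member with an E-box.
Mrps23, chr11:88204213-88204412: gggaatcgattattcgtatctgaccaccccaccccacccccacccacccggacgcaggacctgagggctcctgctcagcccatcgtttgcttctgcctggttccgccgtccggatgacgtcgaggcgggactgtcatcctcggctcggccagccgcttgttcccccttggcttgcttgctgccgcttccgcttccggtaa
Mrpl45, chr11:97315541-97315740: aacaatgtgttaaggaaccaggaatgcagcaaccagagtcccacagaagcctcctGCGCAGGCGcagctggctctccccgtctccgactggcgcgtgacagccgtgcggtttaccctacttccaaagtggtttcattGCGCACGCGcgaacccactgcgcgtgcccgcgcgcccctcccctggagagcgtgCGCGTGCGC
Mrpl52, chr14:54426734-54426933: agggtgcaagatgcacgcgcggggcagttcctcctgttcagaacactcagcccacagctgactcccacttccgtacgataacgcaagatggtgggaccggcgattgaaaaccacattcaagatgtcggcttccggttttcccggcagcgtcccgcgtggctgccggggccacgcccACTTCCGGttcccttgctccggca
Mrpl20, chr4:155802703-155802902: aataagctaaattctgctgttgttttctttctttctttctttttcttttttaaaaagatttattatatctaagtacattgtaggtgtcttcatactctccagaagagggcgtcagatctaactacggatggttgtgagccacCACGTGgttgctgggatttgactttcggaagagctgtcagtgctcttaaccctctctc
In Mrpl45 the matches begin at positions -120, -38 and 17, counted from the start as 1. The ETS match of Mrpl52 begins at position 2 and the E-box of Mrpl20 at position -33. These genes had log2 fold changes of -0.38 (Mrps23), 0.22 (Mrpl45), -0.22 (Mrpl52) and -0.20 (Mrpl20), none past the threshold, which no member passed. A relation between matches and fold changes was not tested.

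The rest of the machinery for mitochondrial translation was described with lists of genes for each step. None of these lists had a gene past an edgeR adjusted p of 0.05. Of 5 mitochondrial ribosome proteins with other names, 1 was above and 4 were below zero, with a median log2 fold change of -0.15. Dap3, a GTP-binding protein of the small subunit, had 89.7 and 73.1 CPM in KO, against 101 and 101 CPM in Control, with a log2 fold change of -0.32 (SE 0.14, edgeR adjusted p = 0.491). Ptcd3, which binds RNA in the small subunit, had 69.2 and 55.9 CPM in KO, against 73.8 and 74.2 CPM in Control. Both KO libraries were below both Control libraries for Dap3 and Ptcd3, as for 18.3% of all genes. Chchd1, also of the small subunit, had 39.7 and 40.9 CPM in KO, against 35.9 and 27.0 CPM in Control.

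Of 26 genes for assembly of these ribosomes and modification of their RNA, 16 were above and 10 below zero, with a median of 0.10. At an unadjusted p under 0.05 there were 0 higher and 3 lower in KO, namely Noa1, Rcc1l and Dhx30, where 5.81% of all genes were higher and 4.61% lower. Noa1, a GTPase needed for the small subunit, had 51.0 and 52.1 CPM in KO, against 76.98 and 67.0 CPM in Control, with a log2 fold change of -0.49 (SE 0.16, edgeR adjusted p = 0.35). Rcc1l had 27.5 and 32.6 CPM in KO, against 48.8 and 41.1 CPM in Control, with a log2 fold change of -0.59 (SE 0.21, edgeR adjusted p = 0.413). Both KO libraries were below both Control libraries for each of these genes, which is what 18.3% of all genes showed. Over the 26 genes of the list, both KO libraries were below for 4 and above for 9. Above was the case for 23.6% of all genes.

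Of 15 translation factors and membrane insertion genes, 3 were above and 12 below zero, with a median of -0.11. Oxa1l, the insertase that receives the products of the ribosome, had 89.0 and 92.8 CPM in KO, against 67.3 and 70.5 CPM in Control, with a log2 fold change of 0.39 (SE 0.13, edgeR adjusted p = 0.40). Mtfmt, which formylates the initiator methionyl-tRNA, had 23.3 and 25.6 CPM in KO, against 14.7 and 17.4 CPM in Control. Both genes were higher in both KO libraries. Over the 15 genes of this list, both KO libraries were above in CPM for 2 (23.6% of all genes) and below for 3 (18.3%). Of 20 aminoacyl-tRNA synthetase genes, 11 were above and 9 below zero, with a median of 0.02. At an unadjusted p under 0.05 there were 3 higher (Qrsl1, Mars2 and Pars2) and 1 lower (Yars2), beside the same background of 5.81% and 4.61%. Qrsl1, a subunit of the enzyme that completes glutaminyl-tRNA, had 17.3 and 19.5 CPM in KO, against 8.45 and 10.1 CPM in Control, the largest fold change of this list at 0.98 (SE 0.32, edgeR adjusted p = 0.36). Yars2, the tyrosyl-tRNA synthetase, had 24.4 and 20.3 CPM in KO, against 35.8 and 31.2 CPM in Control.

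Of 10 regulators of mitochondrial gene expression, 7 were above and 3 below zero, with a median of 0.04 and 0 past an unadjusted p of 0.05, and the 95% interval lay within a 2-fold change for 8 of them. Myc, which drives ribosome production in many cells, had 308 and 302 CPM in KO, against 396 and 322 CPM in Control, with a log2 fold change of -0.25 (SE 0.11, edgeR adjusted p = 0.501). Gabpa, the DNA-binding subunit of the ETS factor named above, had 89.9 and 104 CPM in KO, against 81.0 and 84.4 CPM in Control. Both genes separated by genotype, in opposite directions. Over the 10 regulators, both KO libraries were above in CPM for 2 (23.6% of all genes) and below for 2 (18.3%). Of 10 genes for transcription and upkeep of mitochondrial DNA, 4 were above and 6 below zero, with a median of -0.25 and 0 past an unadjusted p of 0.05. Polg2, the accessory subunit of the mitochondrial DNA polymerase, had 8.51 and 9.38 CPM in KO, against 9.71 and 24.5 CPM in Control, so that its log2 fold change of -0.95 (SE 0.47, edgeR adjusted p = 0.532) turned on Control library 2.

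The mRNAs that these ribosomes translate were also measured. Of 13 mitochondrially encoded mRNAs, 10 were above and 3 below zero, with a median log2 fold change of 0.10 and 0 called. Their summed level was 43930 and 43697 TPM in KO, against 40431 and 34783 TPM in Control. Both KO libraries were above both Control libraries, and the Control libraries lay farther apart than the KO libraries. The lowest p was that of mt-Co2, a subunit of cytochrome c oxidase, with 1797 and 2004 CPM in KO, against 1644 and 1408 CPM in Control, and a log2 fold change of 0.31 (SE 0.09, edgeR adjusted p = 0.324). The RNA of the small subunit, mt-Rnr1, had 155 and 130 CPM in KO, against 109 and 97.0 CPM in Control, with a log2 fold change of 0.45 (SE 0.13, edgeR adjusted p = 0.296). The RNA of the large subunit, mt-Rnr2, had 338 and 296 CPM in KO and 295 and 427 CPM in Control, with overlapping groups. The libraries were made from polyadenylated RNA.

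**Figure D5:**
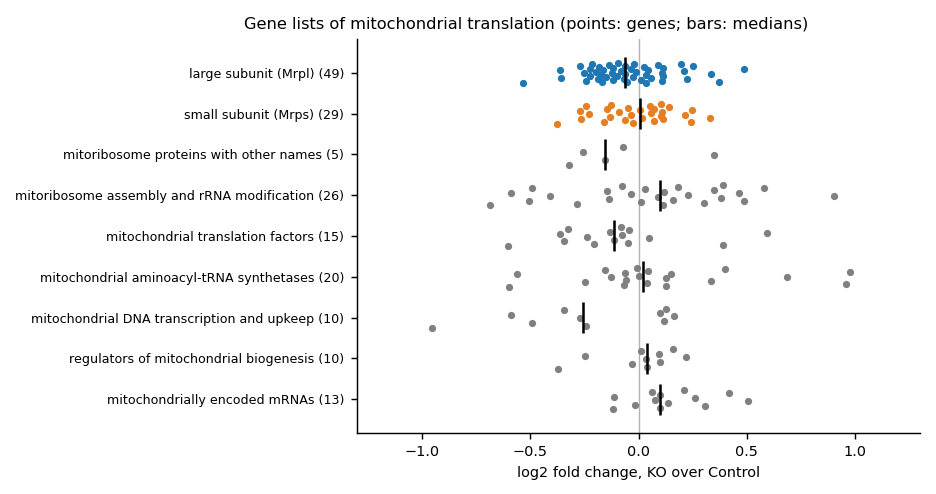
Log2 fold change (KO over Control, x axis) of each gene (points) in the members' subunits and in 7 lists of mitochondrial translation and its regulators, with the median of each list (bar) and the number of genes tested in brackets. The members lie within -0.53 to 0.48, and the assembly, synthetase and DNA upkeep lists hold the points farthest from 0.

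For comparison, of the 86 genes with symbols of cytosolic ribosomal proteins, which take in Rps19bp1, a gene for a binding partner of such a protein, 83 were tested, with a median log2 fold change of -0.04, 29 above and 54 below zero and 0 called. At an unadjusted p under 0.05 there were 0 higher and 5 lower, where 5.81% of all genes were higher and 4.61% lower. Of the 86 nuclear genes with symbols of respiratory chain and ATP synthase subunits 81 were tested, with a median of -0.03, 30 above and 51 below zero and 0 called, and 2 were higher and 2 lower at an unadjusted p under 0.05. The corresponding median of the mitochondrial ribosomal protein genes was -0.04. Of 18 cell cycle genes, whose products mark dividing cells, 11 were above and 7 below zero, with a median of 0.05 and 0 called. Of these, 2 were higher and 0 lower at an unadjusted p under 0.05, namely Mki67 (log2 fold change 0.40, SE 0.10, edgeR adjusted p = 0.237) and Top2a (0.25, SE 0.09, adjusted p = 0.421).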

How the data were processed

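RNA-seq was performed by the authors on polyadenylated RNA with a directional NEBNext Ultra II kit, and RSEM, STAR and the mm10 build appear in the submitters' processing notes, with versions and gene annotation not given in the sources used here. The deposited unit tested here was the expected count per gene, as RSEM estimates it, without normalization. The deposited TPM was used for levels and for limma, and the deposited effective length, posterior mean count and SD were taken from those files too. RSEM splits reads that fit several transcripts, which can move counts between similar transcripts and change the effective length behind a TPM value.

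Symbols and positions came from GENCODE release M21 (GRCm38), which named 55141 of 55401 gene models and all 78 members with the same gene version. The 260 unnamed models took no more than 0.00577% of any library's counts.

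After rounding, expected counts were tested in edgeR 4.0.16 (R 4.3.3) by its quasi-likelihood F test (TMM factors 0.985 to 1.01, filterByExpr with a minimum count of 10, robust fit, genotype as the only term) over 14635 genes, with Benjamini-Hochberg adjustment over all of them and two-sided tests. Calls were made at an adjusted p under 0.05 whatever the fold change. The study's methods name DESeq2, and edgeR was used as the main test for counts. The fit had a common dispersion of 0.222 and a biological coefficient of variation of 0.471. The median prior degrees of freedom were 5.91. CPM was the expected count scaled to the library total. The edgeR, DESeq2 and limma fits were tried on simulated counts. Counting noise was exceeded between replicates by 71% of genes in KO and 73.1% in Control. Each library was counted as 1 replicate, although this spread may be technical.

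The alternatives were DESeq2 1.42.0, RLE size factors, no filter on low counts, effective length as an offset, posterior mean counts, the replicate number as a block, limma 3.58.1 on log2(TPM + 1) and log2(TPM + 0.1), the subunit by structure, TMM-scaled totals, and each library left out in turn. Fold changes from limma are on the log2(TPM + pseudocount) scale, which understates changes of low genes.

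Members and gene lists were chosen with earlier results of these data known. Named members were those with the 6 lowest p in each direction, the 4 highest and the 4 lowest mean TPM, the Mrps18 paralogs and Mrps30, and of each list up to 2 genes with the lowest p. Members named for their effective length (Mrps25 and Mrpl17), list genes beyond these, Mrpl35, Mrpl53 and the head-to-head partners were chosen after their values were seen. Promoter windows came from RefSeq. Set tests were not run.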

Additional observations from a re-analysis of the deposited data

How the results depend on the processing

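Over 30 results and 349 recalculations, 317 kept their direction and their side of the threshold or moved by less than the spread between replicates. The number of members past an adjusted p of 0.05 was 0 in every fit with all libraries, and 0 to 1 with each library left out. The 1 was Mrpl44 without Control replicate 2 (log2 fold change -0.84, edgeR adjusted p = 0.0389). In such fits the lone library has no spread of its own and is assumed to vary as the other group does. At an unadjusted p under 0.05, DESeq2 gave 2 members lower in KO (Mrps23 and Mrpl44), no filter on low counts gave 1 (Mrpl44), effective length as an offset gave 2 (Mrps25 and Mrpl47), and limma with either pseudocount gave 1 higher (Mrpl27) and 2 lower (Mrps25 and Mrpl47). With each library left out the numbers were 0 to 1 higher and 0 to 2 lower.

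The sign turned for some members with small changes. Effective length as an offset gave 0.59 for Mrpl19 and -0.061 for Mrps18c. With limma on log2(TPM + 1) the values were 0.0023 for Mrpl18, 0.01076 for Mrpl33, 0.01128 for Mrps21 and 0.48 for Mrpl19, and on log2(TPM + 0.1) they were 0.00231, 0.01082, 0.01145 and 0.49 in the same order. With each library left out, the log2 fold change ran from -0.84 to -0.14 for Mrpl44, from -0.10 to 0.088 for Mrpl33, from -0.031 to 0.12 for Mrpl42, from -0.31 to 0.0167 for Mrps21, from -0.27 to 0.11 for Mrpl19, from -0.0136 to 0.23 for Mrps18a, from -0.078 to 0.34 for Mrps18b and from -0.20 to 0.79 for Mrps18c. Without turning sign, it ran from -0.33 to -0.11 for Mrpl12, from -0.33 to -0.15 for Mrpl18, from -0.38 to -0.067 for Mrpl52, from -0.40 to -0.017 for Mrpl47, from -0.36 to -0.17 for Mrps26, from 0.21 to 0.73 for Mrpl14, from 0.20 to 0.48 for Mrpl1, from 0.22 to 0.44 for Mrps11, from 0.085 to 0.45 for Mrpl39, from 0.10 to 0.36 for Mrpl45 and from 0.0002 to 0.22 for Mrps30. The log2 ratio of the sums ran from -0.089 to 0.036 in TPM and from -0.10 to 0.0138 in CPM, above zero only without Control replicate 1. Effective length enters TPM and the offset but not the counts, and the cause of the other shifts was not tested.

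No pairing of the libraries by replicate number was seen, as the deviations of same-numbered libraries from their group means had a correlation of -0.0239 across genes. This value cannot exclude a pairing with 2 libraries a group. With the replicate block, 98 genes were called against 97 without it, 0 members among them, 1 member was lower at an unadjusted p under 0.05 (Mrpl44, log2 fold change -0.50), and the family median was -0.04.

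The number of genes called over the whole table was 1116 with DESeq2, 196 with no filter on low counts, 4 with the length offset, 5 with limma on log2(TPM + 1), 0 on log2(TPM + 0.1), and 42 to 371 with each library left out. With 2 libraries a group, changes of members under the size of their intervals were not detectable.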
